A study of Homo sapiens with 6 samples.

Results

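The core genes of microRNA (miRNA) processing and action were examined in HCT116 cells, a human colorectal carcinoma line, with and without overexpression of the RNA-binding protein RBM47. The genes were chosen by symbol, and all 10 were found among the 28491 genes of the count table: DROSHA and DGCR8, DICER1 and TARBP2, the Argonautes AGO1, AGO2 and AGO3, and the GW182 genes TNRC6A, TNRC6B and TNRC6C. The control group (NC_1 to NC_3) and the overexpression group (RBM47-OE_1 to RBM47-OE_3) each had 3 poly(A) RNA-seq libraries. The NC cells had received a control plasmid, whose backbone was not specified, and the RBM47-OE cells a plasmid for RBM47, named pcDNA3.1-3xFlag-RBM47 in the labels and given another backbone in the methods of the study. The labels give a harvest at 48 h after transfection for the RT-qPCR and protein assays, and no other time for the RNA-seq. The overexpression was transient, and nothing in the labels said whether the libraries of a group came from separate cultures, so p-values measured only the spread between these libraries.

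A miRNA is transcribed as part of a longer primary transcript. In the nucleus the Microprocessor, made of the ribonuclease DROSHA and its RNA-binding cofactor DGCR8, cuts out a hairpin precursor. XPO5 carries the hairpin to the cytoplasm, where the ribonuclease DICER1, with its double-stranded RNA-binding partner TARBP2, trims it to a duplex. An Argonaute protein keeps a single strand of the duplex, the mature miRNA, and finds target mRNAs by pairing with the bases of its seed. The GW182 proteins bind Argonaute and bring in deadenylases and decapping factors that silence the target.

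Genes of the machinery carry miRNAs themselves, and these are shown because their hairpins are cut from transcripts of these genes. A poly(A) count of such a gene does not tell how much of its transcript was cut. The sequences and positions are RefSeq's on GRCh38.p14, written 5′ to 3′ with the seed, bases 2 to 8, in capitals. DGCR8 lies at chr22:20080221-20111877 on the plus strand. Its exons hold the hairpins of miR-3618, whose mature miRNA lies outside the coding part of the canonical transcript, and of miR-1306, whose mature strands lie inside it.
miR-3618 (chr22:20085797-20085818): uGUCUACAuuaaugaaaagagc
miR-1306-5p (chr22:20086072-20086093): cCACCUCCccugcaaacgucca
miR-1306-3p (chr22:20086112-20086129): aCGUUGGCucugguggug
The Microprocessor is known to cut its own DGCR8 mRNA at such hairpins. An intron of DICER1 holds miR-3173, and DICER1 lies at chr14:95086228-95158010 on the minus strand.
miR-3173-5p: uGCCCUGCcuguuuucuccuuu
miR-3173-3p: aAAGGAGGaaauaggcaggcca
Mature miRNAs were not measured in these libraries, and the counts below are of the host transcripts only.

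The libraries held 26792409 to 35477983 gene counts, and RBM47 was at 1.91, 2.33 and 1.94 FPKM in NC and at 131.3, 130.41 and 127.04 FPKM in RBM47-OE. The 10 genes together took 0.0637 to 0.0659% of the counts in NC and 0.0639 to 0.0705% in RBM47-OE. The RBM47-OE libraries differed from NC in how their counts followed the GC content of genes. Each NC library was set against the mean of the other NC libraries, and each RBM47-OE library against the mean of NC. Over 16229 genes, the Spearman correlation of this deviation with GC content was -0.16 to 0.13 in NC. It was -0.41, -0.59 and -0.67 in RBM47-OE_1, RBM47-OE_2 and RBM47-OE_3, a description over genes that share a library. A fit with an offset for the GC trend of each library is therefore given beside the fit without it. Any real change that runs along with GC content is lost in that fit too. Of 11 colorectal epithelial markers, EPCAM was at 76.3 FPKM, KRT8 at 538 FPKM and CDX2 at 4.70 FPKM in NC (mean, n = 3), while CDX1, CDH17 and LGALS4 were at 0.02 FPKM or less. Among the markers of other cell types, COL1A1 was at 1.53 FPKM in both groups, while the other 3 fibroblast markers, COL1A2, DCN and LUM, had no row in the table, and CD68, a macrophage marker, at 0.31 FPKM in NC and 0.15 FPKM in RBM47-OE, and their part in the results was not tested. The leukocyte marker PTPRC had no row in the table.

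In the control cells the levels of the 10 genes, in FPKM from the gene lengths of the authors, spread widely. AGO2, an Argonaute that can cleave its targets, stood highest at 11.9 ± 0.142 FPKM (SD, n = 3), at the 81.4 percentile of 16368 protein-coding genes. TARBP2 followed at 6.59 ± 0.132, AGO1 at 6.24 ± 0.134, DGCR8 at 5.26 ± 0.199 and DROSHA at 4.19 ± 0.0603 FPKM. TNRC6A at 3.48 ± 0.15 and TNRC6B at 3.35 ± 0.110 FPKM were neighbours whose ranges overlapped, and no other neighbours in the order did. DICER1 at 2.29 ± 0.239, TNRC6C at 1.92 ± 0.0987 and AGO3 at 1.50 ± 0.0808 FPKM were the lowest, AGO3 at the 41.4 percentile. In RBM47-OE the order of the means was the same except that AGO1 stood above TARBP2 and TNRC6B above TNRC6A. All these levels, and so their order, depend on the gene lengths of the authors. The implied length was 0.647 of the merged GENCODE 44 exons for DICER1 and 1.08 to 1.13 of them for the other 9 genes. Canonical transcripts are shorter, with 1510 bases against 4090 in merged exons for TARBP2, and 14595 against 15847 for AGO2. An order per canonical transcript length was not computed and could differ.

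**Figure D1:**
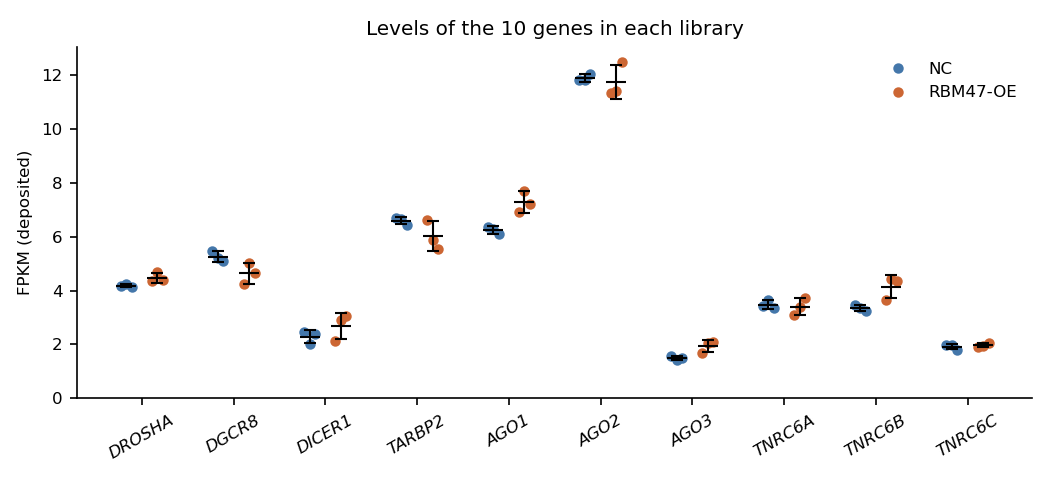
FPKM of the 10 genes in each of the 6 libraries, with a point for each library and a bar at the mean of the 3 libraries of a group. AGO2 is highest in every library at 11.33 to 12.48 FPKM, AGO3 lies between 1.41 and 2.09 FPKM, and the RBM47-OE points of DROSHA, AGO1, AGO3 and TNRC6B lie above those of NC.

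The comparison of RBM47-OE with NC asked whether raising this RNA-binding protein changed the mRNA levels of the miRNA machinery. AGO3 rose 1.23-fold, TNRC6B rose 1.17-fold and DGCR8 fell to 0.840 of its NC level, while the other 7 genes did not pass the test. The test was edgeR's quasi-likelihood test on the counts with Benjamini-Hochberg adjustment over all 16260 genes that passed the filter on low counts, which all 10 genes did, and a gene was called at an adjusted p under 0.05. The 2 genes called higher compare with 19.1% of all tested genes and the 1 called lower with 16.9%. In either direction 3 of the 10 were called (30%), near the 35.9% of all genes. The median log2 fold change was -0.007 over the machinery and 0.00 over all genes, and the median absolute change was 0.15 against 0.24. On the log2 scale of counts scaled to library size (CPM), the groups did not overlap for 4 genes, with RBM47-OE above NC for 3 and below for 1, against 23.2% and 23.4% of all genes. With the GC trend removed from CPM, RBM47-OE lay wholly above NC for AGO1 and wholly below for DROSHA, AGO2 and TNRC6A, 1 and 3 genes against 16.3% and 15.5% of all genes. With the GC offset 0 were called higher and 1 lower, TNRC6A, against 6.88% and 7.75% of all genes. No member met the thresholds of the study, an unadjusted p under 0.01 with a change above 1.5-fold, applied here to the edgeR fit. The study applied them to DESeq2. Of all genes, 2.38% met them in the edgeR fit.

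**Figure D2:**
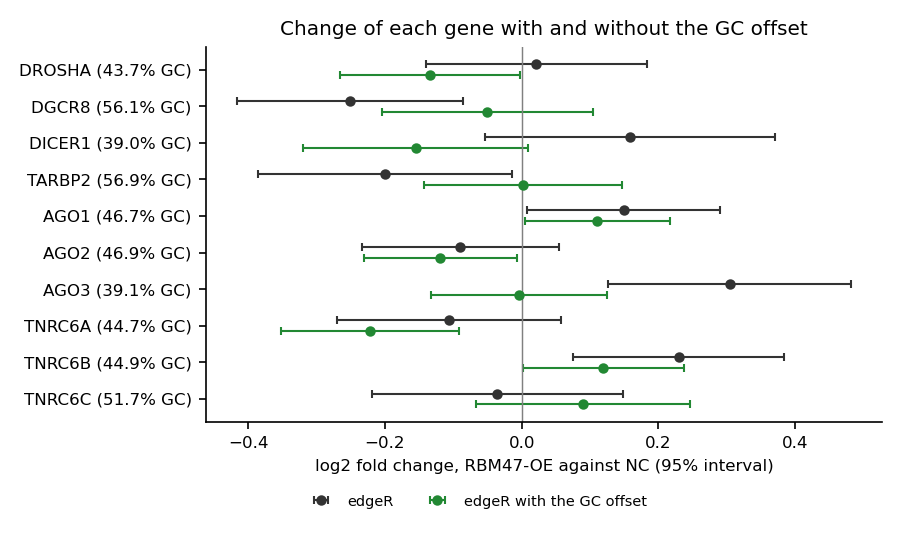
Log2 fold change of each of the 10 genes (RBM47-OE against NC) with 95% confidence intervals, from the fit without and the fit with the GC offset. Without the offset the changes run from -0.25 for DGCR8 to 0.30 for AGO3; with it AGO3 and TARBP2 lie at 0 within 0.01, and the AGO1 and TNRC6B points stay above 0.

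Within the Microprocessor, DGCR8 fell and DROSHA was not called. DROSHA (chr5:31400494-31532196, minus strand), the ribonuclease, was at 4.18, 4.25 and 4.13 FPKM in NC and at 4.34, 4.68 and 4.38 FPKM in RBM47-OE. All RBM47-OE values lay above NC on this scale, which divides by the library total, but the groups overlapped on log2 CPM with TMM scaling. Its log2 fold change was 0.02 (95% interval -0.14 to 0.18, adjusted p = 0.86), and it was -0.13 (adjusted p = 0.17) with the GC offset. DGCR8 was at 5.48, 5.19 and 5.10 FPKM in NC and at 4.25, 5.03 and 4.66 FPKM in RBM47-OE, so every RBM47-OE library lay below every NC library, RBM47-OE_2 only by a small margin. It fell by 0.25 on the log2 scale (SE 0.080, adjusted p = 0.0166). The call was lost without NC_1 (-0.22, adjusted p = 0.105) and without NC_2 (-0.26, adjusted p = 0.059), and with library totals (-0.19, adjusted p = 0.0898), and the change was -0.05 (adjusted p = 0.71) with the GC offset. The exons of DGCR8 have a GC content of 56.1%, and genes of similar GC content, taken as 1 of 10 equal classes, had a median log2 fold change of -0.20.

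The Dicer complex showed no call. DICER1 was at 2.46, 2.02 and 2.40 FPKM in NC and at 2.14, 2.90 and 3.04 FPKM in RBM47-OE. RBM47-OE_1 lay among the NC values and the other two RBM47-OE libraries above them. The log2 fold change was 0.16 (SE 0.10, 95% interval -0.05 to 0.37, adjusted p = 0.247). Without RBM47-OE_1 it was 0.30 (adjusted p = 0.0073), and with the GC offset it was -0.15 (adjusted p = 0.208). TARBP2 (chr12:53500921-53506431, plus strand) was at 6.69, 6.64 and 6.44 FPKM in NC and at 6.62, 5.88 and 5.56 FPKM in RBM47-OE. Again RBM47-OE_1 was the library that lay among the controls. The log2 fold change of TARBP2 was -0.20 (SE 0.090, adjusted p = 0.0853), -0.29 (adjusted p = 0.0047) without RBM47-OE_1, and 0.0024 (adjusted p = 0.99) with the GC offset. The exons of DICER1 have a GC content of 39.0% and those of TARBP2 56.9%, and RBM47-OE_1 was the RBM47-OE library with the weakest GC trend.

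Among the Argonautes, AGO3 rose, AGO1 was higher in every RBM47-OE library without passing the test, and AGO2 was not called. AGO1 (chr1:35869808-35930532) and AGO3 (chr1:35930718-36072500) are neighbours on the plus strand of chromosome 1. AGO3 was at 1.57, 1.41 and 1.51 FPKM in NC and at 1.67, 2.07 and 2.09 FPKM in RBM47-OE. The groups did not overlap, and the log2 fold change was 0.30 (SE 0.086, adjusted p = 0.0076). Without NC_2 it was 0.26 (adjusted p = 0.071), and with the GC offset it was -0.0037 (adjusted p = 0.98). Its exons, at 39.1% GC, fall in a GC class whose median log2 fold change was 0.31. AGO1 was at 6.34, 6.30 and 6.09 FPKM in NC and at 6.92, 7.71 and 7.21 FPKM in RBM47-OE. These groups did not overlap either, also on log2 CPM with the GC trend removed. The log2 fold change of AGO1 was 0.15 (SE 0.069, 95% interval 0.008 to 0.29, adjusted p = 0.0937) and 0.11 (adjusted p = 0.16) with the GC offset. It passed the test without RBM47-OE_1 (0.18, adjusted p = 0.0154) and when counts were scaled to library totals (0.21, adjusted p = 0.018). AGO2, on the minus strand of chromosome 8, was at 11.81, 11.80 and 12.05 FPKM in NC and at 11.33, 11.41 and 12.48 FPKM in RBM47-OE. RBM47-OE_3 was the highest of the 6 libraries and the other RBM47-OE libraries the lowest. The log2 fold change of AGO2 was -0.09 (95% interval -0.23 to 0.05, adjusted p = 0.339), and -0.12 (adjusted p = 0.15) with the GC offset.

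Of the GW182 genes, TNRC6B rose, while TNRC6A and TNRC6C were not called. TNRC6B (chr22:40044817-40335808, plus strand) was at 3.46, 3.36 and 3.24 FPKM in NC and at 3.65, 4.42 and 4.35 FPKM in RBM47-OE. All RBM47-OE libraries lay above NC, RBM47-OE_1 closest to it. The log2 fold change was 0.23 (SE 0.075, adjusted p = 0.0187), and 0.12 (adjusted p = 0.17) with the GC offset. The call was lost on leaving out NC_2 (0.23, adjusted p = 0.082), NC_3 (0.20, adjusted p = 0.112), RBM47-OE_2 (0.20, adjusted p = 0.078) or RBM47-OE_3 (0.19, adjusted p = 0.073). TNRC6A (chr16:24610209-24827632, plus strand) was at 3.44, 3.65 and 3.36 FPKM in NC and at 3.10, 3.39 and 3.73 FPKM in RBM47-OE, and the groups overlapped. Its log2 fold change was -0.11 (SE 0.080, adjusted p = 0.32). With the GC offset it was the 1 member called, at -0.22 (adjusted p = 0.0213), but at -0.17 (adjusted p = 0.077) when GC content was taken from the canonical transcript. TNRC6C (chr17:77958703-78108822, plus strand) was at 1.99, 1.97 and 1.81 FPKM in NC and at 1.92, 1.95 and 2.05 FPKM in RBM47-OE, with a log2 fold change of -0.04 (95% interval -0.22 to 0.15, adjusted p = 0.79). TNRC6C shares 1426 exonic bases with TMC6 on the opposite strand, which had 2717 to 3750 counts in every library. The study names a stranded library kit, but the use of strand in the counting was not stated. To which gene reads from these bases were counted is therefore not known. The shared exonic bases of DICER1 with DICER1-AS1 and of DGCR8 with TRMT2A number 80 and 3.

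**Figure D3:**
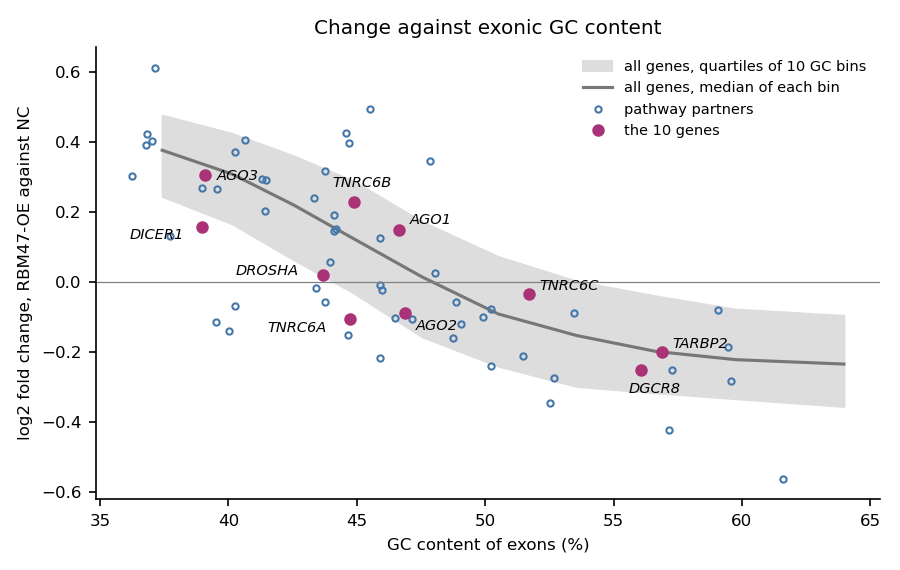
Log2 fold change (RBM47-OE against NC) against the GC percent of exons for the 10 genes, over the median and quartiles of all genes in 10 GC classes. The class median falls from 0.38 at 37.4% GC to -0.23 at 64.0% GC; AGO3 and DGCR8 lie close to it, AGO1 and TNRC6B above it and AGO2 and TNRC6A below it.

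The changes of the machinery were read against the GC content of its genes. Over all genes, the median change of a GC class went from 0.38 in the lowest class to -0.23 in the highest. Against the median of its own class, AGO3 was at 0.30 beside 0.31, DGCR8 at -0.25 beside -0.20 and TARBP2 at -0.20 beside -0.20. TNRC6C, at -0.04 beside -0.09, lay about as near to its class median as DGCR8. The other genes lay further from theirs. DICER1 was at 0.16 beside 0.31 and DROSHA at 0.02 beside 0.12, both below their class. AGO1 was at 0.15 and AGO2 at -0.09 beside a median of 0.01, and TNRC6B was at 0.23 and TNRC6A at -0.11 beside a median of 0.12. AGO1 and AGO2 have almost the same GC content, 46.7% and 46.9%, and so have TNRC6A and TNRC6B, 44.7% and 44.9%.

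Ratios of 2 genes within a library do not depend on the scaling between libraries, and 6 were compared. Their smallest possible p in an exact two-sided permutation test with 3 against 3 libraries is 0.10, so none could pass a threshold of 0.05. The FPKM ratio of TNRC6B to TNRC6A was 1.01, 0.921 and 0.964 in NC and 1.18, 1.30 and 1.17 in RBM47-OE. The groups did not overlap, with a log2 difference of 0.33 (exact p = 0.10, adjusted over the 6 ratios 0.15), and it was 0.34 on CPM with the GC trend removed, again with no overlap. The ratio of AGO1 to AGO2 was 0.537, 0.534 and 0.505 in NC and 0.611, 0.676 and 0.578 in RBM47-OE. Its log2 difference was 0.24 (exact p = 0.10, adjusted 0.15), and it was 0.23 with the GC trend removed, with no overlap on either scale. For both of these pairs the difference between the groups exceeded the range of the log2 FPKM ratio within either group. So it did for AGO3 to AGO2 and DROSHA to DGCR8, but not for DICER1 to TARBP2 or TNRC6C to TNRC6A. No share over all gene pairs is given beside these ratios. For single genes, the groups did not overlap on log2 CPM for 46.5% of all genes. The ratio of AGO3 to AGO2 went from 0.126 ± 0.00674 to 0.165 ± 0.0171 (SD, n = 3 each; log2 difference 0.39, and 0.12 with the GC trend removed, no overlap in either). The ratio of DROSHA to DGCR8 went from 0.797 ± 0.0301 to 0.964 ± 0.0499, without overlap. Its log2 difference of 0.27 became -0.08 with the GC trend removed, where the groups overlapped (exact p = 0.60). The ratio of DICER1 to TARBP2 was 0.348 ± 0.0382 and 0.454 ± 0.117 with overlapping groups, and its log2 difference turned from 0.35 to -0.16. For TNRC6C to TNRC6A the log2 difference was 0.07 with overlap and 0.31 without overlap once the GC trend was removed. The removal of the GC trend from the ratios was an alternative chosen after seeing the data.

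**Figure D4:**
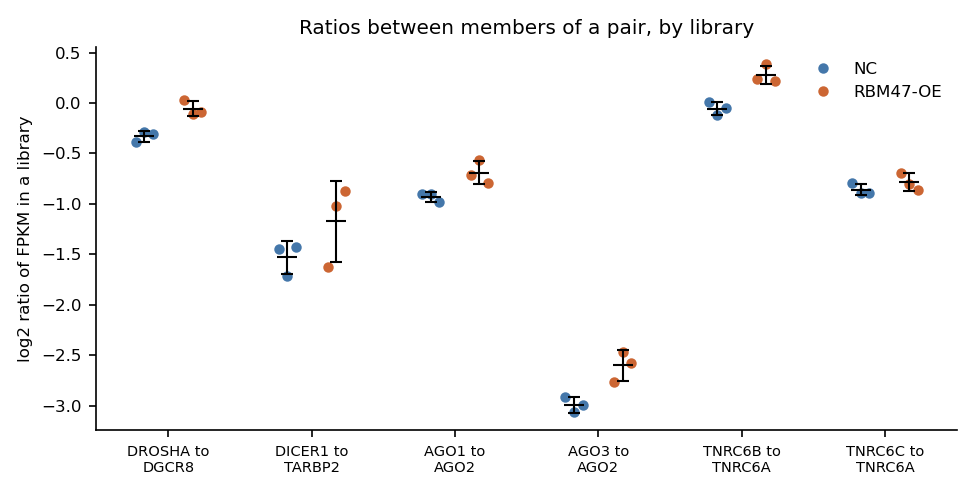
Log2 FPKM ratio of 6 gene pairs in each of the 6 libraries, with a point for each library and a bar at the mean of the 3 libraries of a group. The RBM47-OE points lie above all NC points for 4 pairs, among them TNRC6B to TNRC6A and AGO1 to AGO2, and overlap NC for DICER1 to TARBP2 and TNRC6C to TNRC6A.

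As a share of the summed FPKM of the Argonautes, AGO4 included, AGO2 took 56.7 ± 0.447% in NC and 51.4 ± 1.65% in RBM47-OE (SD, n = 3 each). AGO1 took 29.8 and 31.9%, AGO3 7.13 and 8.49%, and AGO4 6.45 and 8.22%. The summed level of the 4 genes was 20.98 ± 0.0954 FPKM in NC and 22.84 ± 0.995 FPKM in RBM47-OE. Of the summed GW182 level, TNRC6A took 39.8 and 35.8%, TNRC6B 38.3 and 43.4%, and TNRC6C 21.9 and 20.8%. TNRC6B took the largest share in every RBM47-OE library and in NC_1, and TNRC6A did so in NC_2 and NC_3. Which gene took the largest share depends on the gene lengths of the authors. The merged exons and the canonical transcript have 12968 and 8491 bases for TNRC6A, and 19998 and 18280 for TNRC6B. Shares per canonical transcript length were not computed. The GC trend was not removed from the shares given here. With the GC offset the log2 fold changes were 0.11 for AGO1, -0.12 for AGO2, -0.0037 for AGO3 and 0.28 for AGO4. They were -0.22 for TNRC6A, 0.12 for TNRC6B and 0.09 for TNRC6C.

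The other genes of the pathway were described with a list of 57 partners, of which 56 were in the table and 52 were tested. In RBM47-OE 17 were called higher and 9 lower, 26 of 52 (50%) against 35.9% of all genes, with a median log2 fold change of -0.01. With the GC offset 4 were called higher and 8 lower, 12 of 52 against 14.6% of all genes (6.88% higher and 7.75% lower), and 4 higher and 3 lower were called in both fits. The partners called in both fits were AGO4, HSP90AA1, CNOT10 and XRN1, which were higher, and SRRT, FKBP4 and CNOT9, which were lower.

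Of 9 partners of the Microprocessor, 2 rose and 2 fell, against 19.1% and 16.9% of all genes. In the fit with the offset 0 were called higher and 3 lower, against 6.88% and 7.75%. NCBP1 (0.29, adjusted p = 0.0074) and NCBP2 (0.24, adjusted p = 0.0146), the subunits of the nuclear cap-binding complex, rose. Both calls were lost with the GC offset, at 0.05 (adjusted p = 0.66) and 0.07 (adjusted p = 0.47). That of NCBP1 was also lost without NC_3 (0.26, adjusted p = 0.052) or RBM47-OE_3 (0.19, adjusted p = 0.069), and that of NCBP2 without NC_1 (0.24, adjusted p = 0.064), NC_2 (0.22, adjusted p = 0.095) or RBM47-OE_3 (0.18, adjusted p = 0.085). SRRT, which links that complex to the processing of primary miRNAs, fell by 0.42 on the log2 scale (adjusted p = 7.9e-05). It went from 30.66, 29.76 and 30.55 FPKM in NC to 23.32, 23.81 and 24.14 FPKM in RBM47-OE, and with the GC offset it fell by 0.21 (adjusted p = 0.0128). The RNA-binding protein KHSRP fell by 0.28 (adjusted p = 0.0029), and had a change of -0.06 (adjusted p = 0.52) with the GC offset. SRSF3, a splicing factor that also binds primary miRNAs, and ERH, a partner of DGCR8, were called lower only in the fit with the offset. SRSF3 was at -0.42 (adjusted p = 1.1e-04) with it and at -0.14 (adjusted p = 0.133) without it, and ERH at -0.40 (adjusted p = 7.9e-04) and -0.11 (adjusted p = 0.225). The export factor XPO5 was called in neither fit, at -0.11 (adjusted p = 0.25) and -0.12 (adjusted p = 0.135) with the offset. RAN, the GTPase that works with it, was not called without the offset (-0.15, adjusted p = 0.126) and was called lower with it (-0.27, adjusted p = 0.0084).

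Of 8 genes of Dicer and Argonaute loading, 2 rose and 1 fell, 3 of 8 (37.5%) against 35.9% of all genes. The offset gave 2 called higher and 2 lower, 4 of 8 against 14.6%; the further gene was PRKRA, a relative of TARBP2, at -0.34 (adjusted p = 0.0029) with the offset and -0.07 (adjusted p = 0.54) without it. HSP90AA1, a chaperone that holds Argonaute open for loading, was at 434.65, 410.13 and 402.89 FPKM in NC and at 483.56, 641.58 and 723.04 FPKM in RBM47-OE. The RBM47-OE libraries were all higher but spread widely, with a log2 fold change of 0.49 (adjusted p = 5.0e-04) and of 0.41 (adjusted p = 0.0037) with the GC offset. AGO4, the remaining Argonaute, was at 1.25, 1.38 and 1.43 FPKM in NC and at 1.84, 1.85 and 1.94 FPKM in RBM47-OE. It rose by 0.40 (adjusted p = 0.0048), and by 0.28 (adjusted p = 0.0496) with the GC offset. FKBP4, a cochaperone of HSP90, fell by 0.34 (adjusted p = 0.0013) and by 0.20 (adjusted p = 0.0375) with the offset.

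Of 7 turnover factors tested, 4 rose and 1 fell, against 19.1% and 16.9% of all genes, and with the GC offset 0 of 7 were called by edgeR, against 14.6%. The 3 largest rises were those of TUT7, a terminal uridylyl transferase (0.37), PARN, a deadenylase (0.32), and TENT2, a poly(A) polymerase (0.30). They were at 0.09, 0.16 and -0.06 with the offset, none of them called. The call of TENT2 was also lost without NC_3 (0.25, adjusted p = 0.098) or RBM47-OE_2 (0.22, adjusted p = 0.099). ZC3H12A, a ribonuclease that degrades precursor miRNAs, fell by 0.56 (adjusted p = 0.0040), and had -0.33 (adjusted p = 0.13) with the offset. LIN28A and LIN28B, which block the processing of let-7, were listed in the table but too low to be tested.

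Of 24 genes of the machinery that GW182 recruits, 9 rose and 5 fell, 14 of 24 (58.3%) against 35.9% of all genes. Under the GC offset 2 were called higher and 2 lower, 4 of 24 (16.7%) against 14.6%. XRN1, the 5′ exonuclease that degrades decapped mRNA, was at 2.19, 2.12 and 1.97 FPKM in NC and at 2.86, 3.57 and 3.68 FPKM in RBM47-OE. It was the 1 partner past the thresholds of the study in the edgeR fit, at 0.61 (SE 0.090, adjusted p = 4.5e-05). With the GC offset XRN1 rose by 0.26 (adjusted p = 0.0109). CNOT10, a subunit of the CCR4-NOT deadenylase complex, rose by 0.43 (adjusted p = 7.2e-04) and by 0.30 (adjusted p = 0.0083) with the offset. CNOT7, a catalytic subunit of that complex, rose by 0.42 but was at 0.07 with the offset. EDC3 (-0.27), a decapping enhancer, CNOT3 (-0.25), a further CCR4-NOT subunit, and EIF4ENIF1 (-0.24), a translational repressor, fell. With the offset they were at -0.13, -0.04 and -0.15, none of them called. The call of EDC3 was also lost without NC_2 (adjusted p = 0.096) and that of CNOT3 without NC_2, NC_3 or RBM47-OE_3 (adjusted p = 0.062 to 0.083). That of EIF4ENIF1 was kept on leaving out RBM47-OE_1 but on leaving out no other library (adjusted p = 0.067 to 0.167). CNOT9 was at -0.22 (adjusted p = 0.0181) and, with the offset, at -0.28 (adjusted p = 0.0017). DCP2, the decapping enzyme, was called lower only with the offset, at -0.20 (adjusted p = 0.0336), and was at 0.13 (adjusted p = 0.223) without it.

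**Figure D5:**
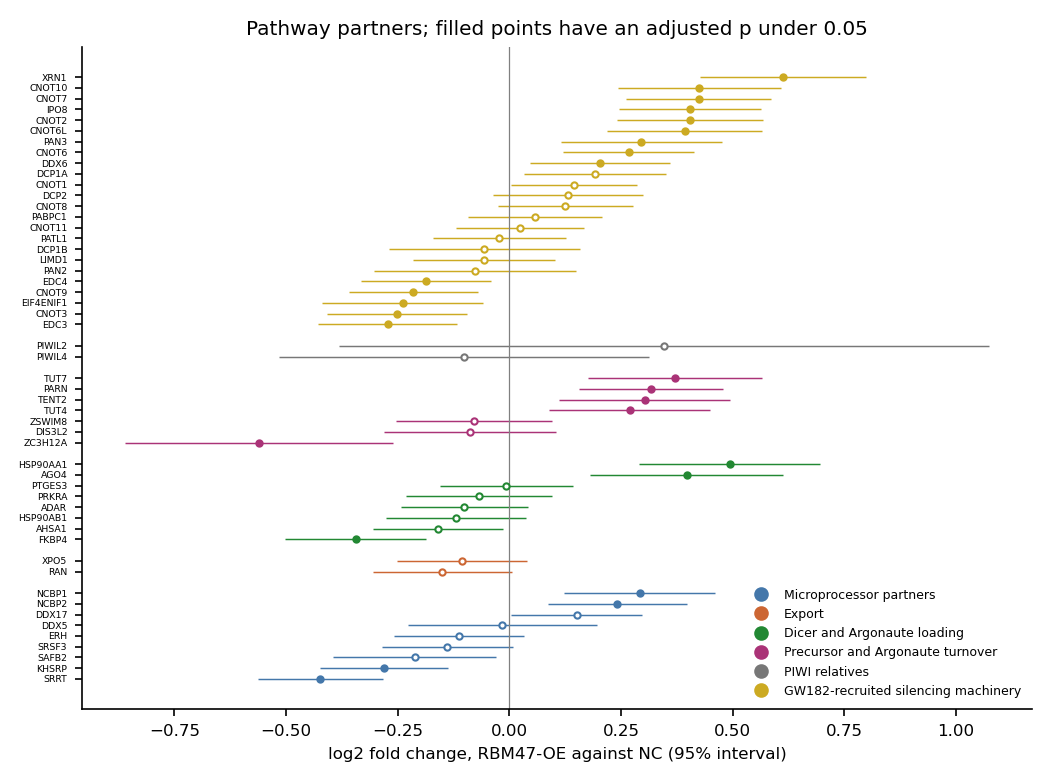
Log2 fold change (RBM47-OE against NC) of the 52 tested partners by class, with a point and a 95% confidence interval for each gene, the point filled where the gene was called at an adjusted p under 0.05. XRN1 is the highest at 0.61 and ZC3H12A the lowest at -0.56, and the GW182 class holds 9 genes called higher and 5 called lower.

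Primary transcripts that carry miRNAs are the substrate of the Microprocessor. Genes with a symbol of the form MIR...HG, which names them as hosts of miRNAs, were followed, picked by symbol only. Their counts do not tell primary transcripts from spliced host RNA. Of 42 such rows 23 were tested, and 1 was called higher and 2 lower, 3 of 23 (13%) against 35.9% of all genes. Under the offset 0 were called higher and 3 lower, 3 of 23 against 14.6%. The main miRNAs of MIRLET7BHG, which fell, and MIR100HG, which rose without the offset, are shown because both hosts carry let-7a-5p; it shares the seed GAGGUAG with let-7b-5p, and miR-100-5p and miR-125b-5p have other seeds.
let-7a-5p (MIRLET7BHG, chr22:46112752-46112773, plus strand; MIR100HG, chr11:122146568-122146589, minus strand): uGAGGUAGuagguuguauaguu
let-7b-5p (MIRLET7BHG, chr22:46113691-46113712, plus strand): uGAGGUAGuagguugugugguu
miR-100-5p (MIR100HG, chr11:122152275-122152296, minus strand): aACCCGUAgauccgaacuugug
miR-125b-5p (MIR100HG, chr11:122099809-122099830, minus strand): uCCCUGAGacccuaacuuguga
All of them lie outside the exons of the canonical host transcript. MIRLET7BHG had 97, 126 and 87 counts in NC and 69, 68 and 35 counts in RBM47-OE. No library of the groups overlapped, and the gene fell by 0.93 on the log2 scale (SE 0.22, adjusted p = 0.0017), with a call in every fit that left out a library (largest adjusted p = 0.0152). With the GC offset it fell by 0.69 (adjusted p = 0.0311). MIR100HG had 835, 952 and 806 counts in NC and 1151, 1153 and 1096 counts in RBM47-OE. It rose by 0.32 (adjusted p = 0.0057), a call lost without NC_2 (0.28, adjusted p = 0.060) and with the GC offset (0.04, adjusted p = 0.77). MIRLET7A1HG, a further host of let-7a-5p, had 19 to 40 counts and a log2 fold change of -0.11 (adjusted p = 0.82), or -0.33 (adjusted p = 0.54) with the offset; it was named after its values were seen. MIR4453HG fell by 0.98 (SE 0.36, adjusted p = 0.0378) on 18, 47 and 31 counts in NC and 14, 15 and 21 in RBM47-OE, where the groups overlapped. It was at -1.14 (adjusted p = 0.0378) with the GC offset. The call was lost without NC_2 (-0.72, adjusted p = 0.235), NC_3 (-0.96, adjusted p = 0.095), RBM47-OE_1 (-0.82, adjusted p = 0.107) or RBM47-OE_2 (-0.89, adjusted p = 0.12). MIR4435-2HG was called lower only with the offset, at -0.29 (adjusted p = 0.0213) against -0.20 (adjusted p = 0.098) without it. The mature miRNA of MIR4453HG lies in an exon.
miR-4453 (chr4:152536432-152536451, plus strand): gAGCUUGGucuguagcgguu

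The genes whose profile over the 6 libraries was most like that of DICER1, by the Euclidean distance of centred log2 CPM among 10330 genes, were VMA21 at 0.12, GABPB1 at 0.14 and TDG at 0.14. Their GC contents were 39.0, 39.5 and 39.8%, beside 39.0% for DICER1. For AGO2 they were MCCC2 at 0.031, RRM2 at 0.035 and CDK11B at 0.050, with GC contents of 39.9, 48.8 and 55.9% beside 46.9%.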

How the data were processed

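Poly(A) RNA-seq was done on 3 NC and 3 RBM47-OE libraries of HCT116 cells, and per the labels the reads were aligned to GRCh38. The authors deposited raw read counts per gene, and a separate table of FPKM that they made from reads and gene length. The annotation release and the use of strand in counting were not given in the sources used here. Libraries held 26792409 to 35477983 counts. Counts were tested with edgeR 4.0.16 in R 4.3.3 (filterByExpr with a minimum count of 10, TMM, quasi-likelihood, condition only), with Benjamini-Hochberg adjustment over 16260 genes. The GC offset was a loess (span 0.3) of each library against the mean of all libraries on the GC content of GENCODE 44 exons. DESeq2 1.42.0, limma 3.58.1 on log2 FPKM (pseudocount 1 or 0.1), library totals, a length offset and leaving out each library were alternatives. FPKM ratios were compared by exact permutation tests. The fits were also run on simulated data, without a GC trend and with a linear one set only in RBM47-OE. These runs cannot show whether the offset removes real changes in these data.

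The members and gene lists were chosen with earlier results of these data known. Named were the 10 members, RBM47, up to 3 partners or hosts per class and direction with the largest called changes, and the 3 nearest profiles of DICER1 and AGO2. Partners called in both fits or only with the GC offset, MIR4435-2HG and MIRLET7A1HG were added after the values were seen, and the GC offset on canonical transcripts was an alternative chosen after seeing the data.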

Additional observations from a re-analysis of the deposited data

How the results depend on the processing

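The counts of called genes depended on the fit. For the 10 members, 2 were higher, and leaving out 1 library gave 0 (without NC_2) to 4 (without RBM47-OE_1). None was higher with the GC offset (on exons, on canonical transcripts, or with the replicate block), the length offset, limma on log2(FPKM + 1) without a filter, or the thresholds of the study. For members 1 was lower, and leaving out 1 library gave 0 (without NC_1 or NC_2) to 2 (without RBM47-OE_1). It was 0 with library totals, the canonical GC offset, all 3 limma fits and the thresholds of the study, and 3 with the length offset. The median log2 fold change, -0.007, was -0.034 to 0.0078 on leaving out a library, 0.055 with library totals, -0.11 with the length offset, and 0.050, 0.063 and 0.050 in the limma fits (pseudocount 1, 0.1, and 1 without a filter). Library totals shifted the median of all genes by 0.06.

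Partners called higher, 17, ranged over 12 to 21 on leaving out a library, and were 4 with the GC offset, 5 with the canonical GC offset, 10 with limma without a filter and 1 by the thresholds of the study. Partners called lower, 9, ranged over 4 (without NC_2) to 11, and were 5 with library totals, 4 in both filtered limma fits, 2 without a filter and 0 by the thresholds of the study. Host genes called higher, 1, ranged over 0 to 2, and were 0 with each GC offset, the length offset, the limma fits and the thresholds of the study. Host genes called lower, 2, ranged over 1 to 3, and were 1 with DESeq2 on filtered or all genes, library totals or the thresholds of the study, and 0 with limma without a filter.

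No pairing by replicate number was seen: deviations of same-numbered libraries correlated at -0.0596, -0.0149 and -0.0159. These values cannot tell whether same-numbered libraries were made together. With the replicate block, 2 members were higher and 1 lower, 16 partners higher and 7 lower; with the block and the GC offset 0 members and 3 partners were higher, and AGO4 lost its call (adjusted p = 0.053). The smallest exact p of 3 pairs is 0.25.

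Directions turned as follows. With the GC offset, the canonical GC offset, and the GC offset with the block, DROSHA was at -0.135, -0.0549 and -0.135, DICER1 at -0.155, -0.130 and -0.155, AGO3 at -0.0037, -0.0125 and -0.0036, TNRC6C at 0.0900, 0.0893 and 0.0899, and TENT2 at -0.0587, -0.0351 and -0.0595. TARBP2 was at 0.0024 and 0.0236 in the first and second of these, and NCBP2 at -0.0249 in the second. With the length offset DROSHA was at -0.0583 and DICER1 at -0.0226. TNRC6C was at 0.0264 with library totals and at 0.0248, 0.0359 and 0.0248 in the limma fits. Leaving out a library gave RBM47 5.85 to 6.0, and log2 ratio differences of 0.178 to 0.291 for AGO1 to AGO2, 0.321 to 0.471 for AGO3 to AGO2, 0.204 to 0.583 for DICER1 to TARBP2, 0.231 to 0.298 for DROSHA to DGCR8, 0.283 to 0.366 for TNRC6B to TNRC6A and 0.027 to 0.113 for TNRC6C to TNRC6A. With the GC trend removed they were -0.0821 for DROSHA to DGCR8, -0.158 for DICER1 to TARBP2, 0.115 for AGO3 to AGO2 and 0.312 for TNRC6C to TNRC6A. The cause of these shifts was not tested. MIR4453HG, at 14 to 47 counts, had an SE of 0.36, against 0.086 for MIR100HG, at 806 to 1153 counts, and 0.069 to 0.10 for the members.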
